A study of Rattus norvegicus with 6 samples.

Results

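The genes described here encode the subunits of the transcription factor NF-kB and the proteins that hold it in check. They were 10 genes chosen by name: the subunits Nfkb1, Nfkb2, Rel, Rela and Relb, the inhibitors Nfkbia, Nfkbib and Nfkbie, and the regulators Bcl3 and Tnfaip3. All 10 were found among the 19289 features of the deposited table, each as a single protein-coding row that overlapped no other listed feature. They were measured by RNA sequencing in INS-1E, an insulin-secreting cell line derived from a rat insulinoma. Cells treated with uric acid for 24 hours gave 3 libraries and untreated cells gave 3. The labels used here give neither a concentration nor a vehicle, nor a culture time for the untreated cells. The labels do not say whether libraries of a group came from separate cultures, so the p-values cover the spread among libraries, which may be technical.

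NF-kB proteins bind DNA as dimers. In resting cells the inhibitors of the IkB family keep dimers such as those of RelA in the cytoplasm, until a kinase complex marks the inhibitor for destruction and the dimer enters the nucleus. In the non-canonical route, trimming of the Nfkb2 precursor frees dimers that contain RelB. Several genes of the system, Nfkbia and Tnfaip3 among them, are themselves switched on by NF-kB and act as brakes on it. In pancreatic beta cells the pathway is known for its activation by inflammatory cytokines.

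DNA around the transcription starts is shown first, because NF-kB genes are known to carry sites for NF-kB itself. Promoter windows of 300 bases (250 before the start and 50 from it on) came from RefSeq, build GRCr8, and matched 9 of the 10 genes; Relb was not matched. The kB consensus, which reads GGG, a purine, any pair of bases, a pair of pyrimidines and CC, was searched on both strands, overlapping matches included. It was found in 7 of the 9 windows (Bcl3, Nfkbia, Nfkb1, Nfkb2, Rel, Nfkbie and Tnfaip3), and in 7.51% of all 33469 windows. Rela and Nfkbib had no match in this window. The match nearest the start is printed below in capitals, 5′ to 3′ on the strand of the gene, with 10 bases on each side.
Bcl3: tcggcggcagGGGAAGTCCCgcagcccggc
Nfkbia: tgactggcttGGAAATTCCCcgcgcctgac
Nfkb1: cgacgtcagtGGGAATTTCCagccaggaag
Nfkb2: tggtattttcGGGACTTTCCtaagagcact
Rel: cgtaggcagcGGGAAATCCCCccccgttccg
Nfkbie: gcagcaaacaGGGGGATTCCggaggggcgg
Tnfaip3: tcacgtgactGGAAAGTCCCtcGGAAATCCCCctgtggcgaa

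Those windows lie at chr1:88613574-88613603 (Bcl3, minus strand), chr6:78597084-78597113 (Nfkbia, minus), chr2:226805440-226805469 (Nfkb1, minus), chr1:255108344-255108373 (Nfkb2, plus), chr14:101922000-101922030 (Rel, minus), chr9:22948017-22948046 (Nfkbie, minus) and chr1:15544015-15544056 (Tnfaip3, minus). Counted from the start used by RefSeq's table, the capitals begin at -38 in Bcl3, -31 in Nfkbia, 4 in Nfkb1, -20 in Nfkb2, -82 in Rel, -164 in Nfkbie and -67 in Tnfaip3. That start lies 0 to 2364 bases inside the outermost end of the gene, and farthest inside in Nfkb2. Read on the strand that fits the consensus, Nfkbia and Nfkb1 shared GGGAATTTCC, found in 0.0747% of all windows. Nfkb2 and Tnfaip3 shared GGGACTTTCC (0.111%), and Rel and Tnfaip3 shared GGGGATTTCC (0.0717%). Tnfaip3 held 2 of these next to each other. A match is a description of letters and not of binding, which was not measured.

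Bcl3 is the member with the largest change given below, and its 250 bases before the start (chr1:88613556-88613805, minus strand, GRCr8) are shown whole, with the kB match in capitals.
Bcl3: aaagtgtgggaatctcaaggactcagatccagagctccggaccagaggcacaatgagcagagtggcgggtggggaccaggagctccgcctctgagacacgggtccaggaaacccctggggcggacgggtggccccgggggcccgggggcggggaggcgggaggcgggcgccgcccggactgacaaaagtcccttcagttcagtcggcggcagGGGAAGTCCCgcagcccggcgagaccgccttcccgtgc

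Total estimated counts per library were 41191819 to 48875962 with uric acid and 47858248 to 59092982 untreated. Libraries correlated across the 12460 tested features at 0.981 to 0.988 among the uric acid libraries, 0.987 to 0.991 among the untreated, and 0.969 to 0.985 between groups. These are Pearson's r of log2 counts scaled to the library total after adjustment by TMM factors, and features are not independent replicates. Markers of the beta cell were abundant: the 9 matched of 10 listed summed to 73639 to 85931 FPKM (fragments scaled to both gene length and sequencing depth, a scale that allows levels of different genes to be compared) with uric acid and 74957 to 88883 FPKM untreated, a sum made mostly of Ins1 and Ins2. In edgeR's test at an adjusted p of 0.05, none of the 9 was called higher (4.99% of all tested features) and 1 lower (2.99%). It was Mafa, a transcription factor of the insulin gene, which stood at 280, 254 and 313 FPKM with uric acid and at 400, 370 and 398 FPKM untreated (log2 fold change -0.46 ± 0.08, adjusted p = 0.0129). Its call ended without uric acid library 1 (0.071) or untreated library 1 (0.0564). The groups were also apart for 3 markers that were not called, the factors Pdx1 (-0.26, adjusted p = 0.0699 by edgeR) and Nkx6-1 (-0.16, 0.18), both lower with uric acid, and the glucose transporter gene Slc2a2 (0.23, 0.0906), higher. Over all tested features the groups were apart for 31.0%. The part of these marker differences in the results on NF-kB genes was not tested. The 13 matched immune cell markers all had a mean under 1 FPKM and together summed to 0.87 to 3.0 FPKM with uric acid and 1.01 to 2.13 FPKM untreated. The 8 matched stromal and endothelial markers summed to 0.69 to 1.67 FPKM with uric acid and 1.25 to 2.19 FPKM untreated. No marker of either list was at 0 in every library.

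Relb, Nfkbia and Bcl3 rose with uric acid, and no member fell. Bcl3 was 2.43-fold, Relb 1.72-fold and Nfkbia 1.36-fold higher, as ratios of mean FPKM. The other 7 genes, Rela and Nfkb1 among them, did not pass the test. The test was edgeR's quasi-likelihood F test over the 12460 features with a mean of at least 1 FPKM, all 10 genes among them, with a Benjamini-Hochberg adjusted p under 0.05 as the threshold. Of the 10 genes 3, or 30.0%, were called higher, against 4.99% of all tested features, and none was called lower, against 2.99%. The 10 genes were chosen with earlier results of these data known. The median log2 fold change of the 10 was 0.16, and that of all tested features 0.00. The 3 uric acid libraries lay above the 3 untreated ones for 3 genes (16.8% of all tested features) and below them for 1, Nfkbie (14.2%), so that the groups were apart for 4 of 10, against 31.0% of all tested features. Leaving out 1 library ended some calls: Bcl3 stayed called in 6 of 6 such fits, Relb in 3 and Nfkbia in 2. Over all features the same fits called between 231 and 1173, against 994.

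**Figure D1:**
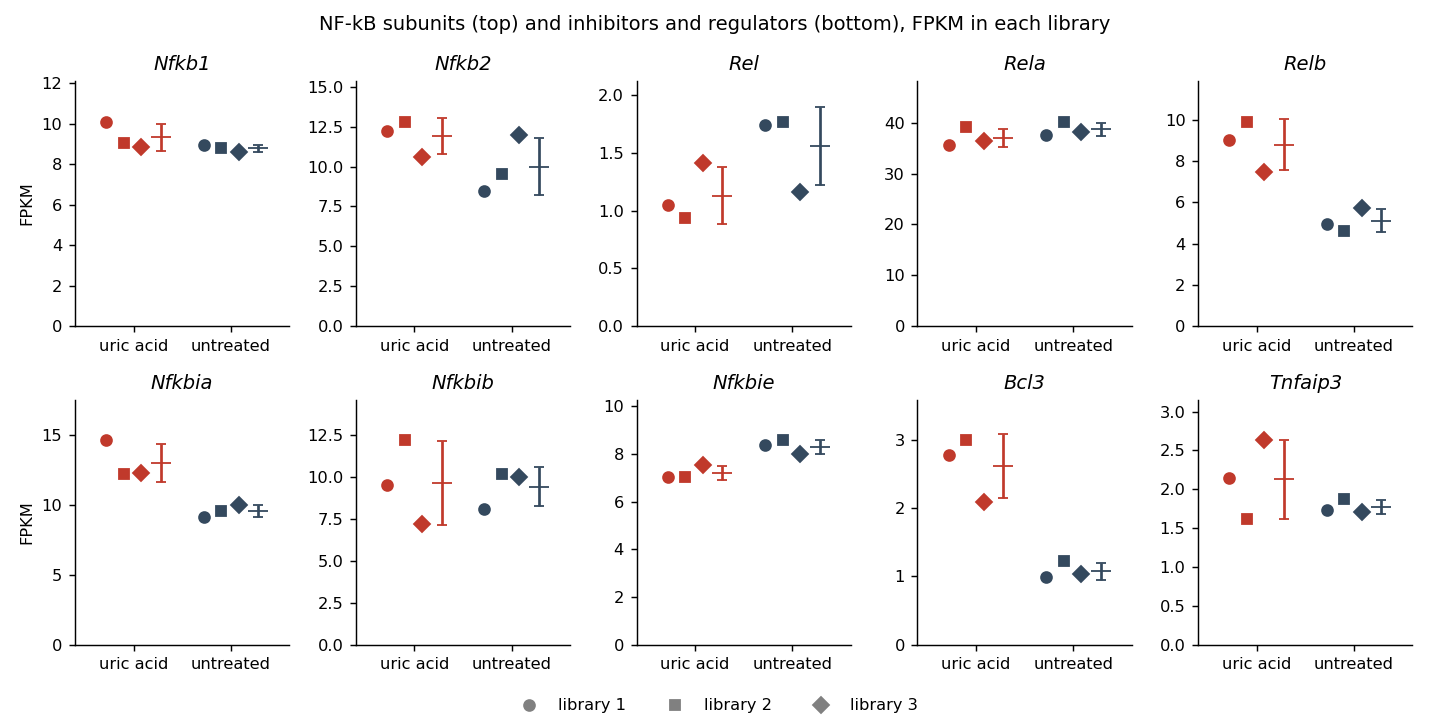
FPKM of each gene in each library, uric acid libraries left and untreated right, with the subunits in the top row; markers are single libraries and the bar beside them is the mean ± SD of 3. The groups are apart for Relb, Nfkbia and Bcl3, where uric acid is higher, and for Nfkbie, where it is lower (7.03 to 7.54 FPKM with uric acid against 7.99 to 8.57 FPKM untreated).

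Relb was the subunit that rose. Its protein pairs mainly with the product of Nfkb2 and serves the non-canonical route. It stood at 9.02, 9.91 and 7.46 FPKM in uric acid libraries 1, 2 and 3, against 4.97, 4.63 and 5.73 FPKM in untreated libraries 1, 2 and 3. The lowest uric acid library exceeded the highest untreated one. The means were 8.80 ± 1.24 FPKM with uric acid and 5.11 ± 0.564 FPKM untreated (SD, n = 3 each), and the edgeR log2 fold change was 0.78 ± 0.14 (SE, adjusted p = 0.0144). Of 16 alternatives 4 ended the call, among them leaving out uric acid library 1 (adjusted p = 0.0624), untreated library 1 (0.0614) or untreated library 2 (0.0813), while the log2 fold change in the 6 fits lay between 0.68 and 0.89. In bulk RNA, more cells that express a gene and more RNA per cell cannot be told apart.

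Nfkb2, whose product joins RelB, overlapped between the groups. It stood at 12.2, 12.8 and 10.6 FPKM with uric acid and at 8.47, 9.56 and 12.0 FPKM untreated. Untreated library 3 alone reached into the uric acid range. The log2 fold change was 0.24 ± 0.14 (adjusted p = 0.296, edgeR), and 0.40 without untreated library 3 (0.0885), still past no threshold.

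Rela and Nfkb1, whose products make up the most studied dimer, differed little. Rela, the main activating subunit, had 35.7, 39.1 and 36.5 FPKM with uric acid and 37.6, 40.2 and 38.2 FPKM untreated, with a log2 fold change of -0.06 ± 0.07 (adjusted p = 0.618, edgeR). Nfkb1 had 10.1, 9.03 and 8.85 FPKM with uric acid and 8.97, 8.81 and 8.59 FPKM untreated, with 0.08 ± 0.08 (0.538). Their standard errors were the smallest of the 10 genes. Rel, which encodes c-Rel, a subunit best known from lymphocytes, had the lowest mean of the 5 subunits in both groups. It stood at 1.05, 0.935 and 1.41 FPKM with uric acid and at 1.74, 1.77 and 1.16 FPKM untreated. Uric acid library 3 and untreated library 3 crossed, and the log2 fold change of -0.46 ± 0.25 did not pass (0.281).

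The share of Relb among the subunit messages was larger with uric acid and that of Rela smaller. The 5 subunits summed to 68.1, 71.8 and 64.9 FPKM in uric acid libraries 1, 2 and 3 and to 61.7, 64.9 and 65.7 FPKM untreated, so the sums overlapped. Relb made up 13.2, 13.8 and 11.5% of the sum with uric acid and 8.06, 7.13 and 8.72% untreated. Rela made up 52.4, 54.5 and 56.3% with uric acid and 60.9, 61.9 and 58.2% untreated. For both shares the groups did not overlap. Shares of one sum are tied to each other, so the share of Rela also moves with the levels of the other 4, and no test was made of the shares.

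**Figure D2:**
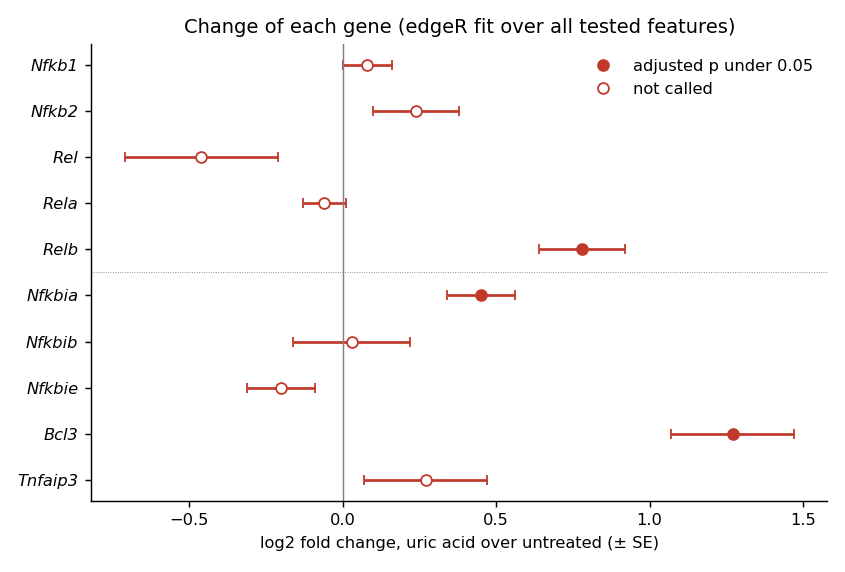
Log2 fold change of each gene, uric acid over untreated, with its standard error, subunits above the dotted line and inhibitors and regulators below it. Filled points passed an adjusted p of 0.05: Relb (0.78), Nfkbia (0.45) and Bcl3 (1.27).

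Nfkbia was the inhibitor of the classical kind that rose. It encodes IkB-alpha, which binds RelA dimers and is rebuilt after each round of activation. It stood at 14.6, 12.2 and 12.3 FPKM in uric acid libraries 1, 2 and 3, against 9.11, 9.57 and 9.97 FPKM in the untreated libraries. The groups were apart, with uric acid library 1 standing above the other two. The means were 13.0 ± 1.37 FPKM with uric acid and 9.55 ± 0.431 FPKM untreated (SD, n = 3 each) and the log2 fold change 0.45 ± 0.11 (adjusted p = 0.0397, edgeR). This was the weakest of the 3 calls. Of 16 alternatives 6 ended it, among them leaving out uric acid library 1 (0.147) or untreated library 1 (0.129), 2 (0.157) or 3 (0.0734), and using no filter on low values (0.0619). Over all 16 its adjusted p lay between 0.0048 and 0.157 and its log2 fold change between 0.37 and 0.49.

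The related inhibitors Nfkbib (IkB-beta) and Nfkbie (IkB-epsilon) were not called. Nfkbib ranged widely among the uric acid libraries, at 9.56, 12.2 and 7.19 FPKM, against 8.07, 10.2 and 10 FPKM untreated, and its log2 fold change of 0.03 ± 0.19 (adjusted p = 0.939, edgeR) had no steady direction. It became -0.18 without uric acid library 2 (0.563) and -0.07 without untreated library 1 (0.875). Nfkbie stood at 7.05, 7.03 and 7.54 FPKM with uric acid and at 8.36, 8.57 and 7.99 FPKM untreated. Its groups were apart, but the log2 fold change of -0.20 ± 0.11 did not pass (0.263).

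Set against Rela in the same library, Nfkbia was the inhibitor that moved up. The ratio of Nfkbia to Rela FPKM was 0.409, 0.312 and 0.336 with uric acid and 0.242, 0.238 and 0.261 untreated. For Nfkbie the ratio was 0.197, 0.18 and 0.207 with uric acid and 0.222, 0.213 and 0.209 untreated. Neither ratio overlapped between the groups, with that of Nfkbia higher and that of Nfkbie lower with uric acid. For Nfkbie the groups almost met, at 0.207 in uric acid library 3 and 0.209 in untreated library 3. For Nfkbib the ratio was 0.268, 0.312 and 0.197 with uric acid and 0.215, 0.255 and 0.262 untreated, which overlap. These are ratios of messages and not of proteins, and no test was made of them.

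Bcl3 had the largest change of the 10 genes, and its call held in each of the 15 alternatives that tested it. Its protein resembles the IkB inhibitors but works in the nucleus, where it joins dimers of the Nfkb1 or Nfkb2 products on DNA and can help or hinder transcription. It stood at 2.78, 3.00 and 2.09 FPKM in uric acid libraries 1, 2 and 3, against 0.987, 1.22 and 1.03 FPKM in the untreated libraries. Estimated counts behind these values were 309, 284 and 219 with uric acid and 135, 147 and 115 untreated. The lowest uric acid library lay well above the highest untreated one. The means were 2.62 ± 0.473 FPKM with uric acid and 1.08 ± 0.125 FPKM untreated (SD, n = 3 each) and the log2 fold change 1.27 ± 0.20 (adjusted p = 0.00785, edgeR). With 1 library left out the log2 fold change lay between 1.16 and 1.41 and the adjusted p between 0.00581 and 0.044. Its level is low, so that a filter of at least 5 FPKM leaves it untested, and on the log2(FPKM + 1) scale, which compresses low values, limma gave 0.79 (0.016).

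Tnfaip3, which encodes a ubiquitin-editing enzyme that shuts the pathway off upstream of the IkB kinase, was not called. It stood at 2.14, 1.62 and 2.63 FPKM with uric acid and at 1.73, 1.87 and 1.71 FPKM untreated. Uric acid library 2 lay below all untreated libraries and the other two lay above all of them. The log2 fold change was 0.27 ± 0.20 (adjusted p = 0.425, edgeR).

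**Figure D3:**
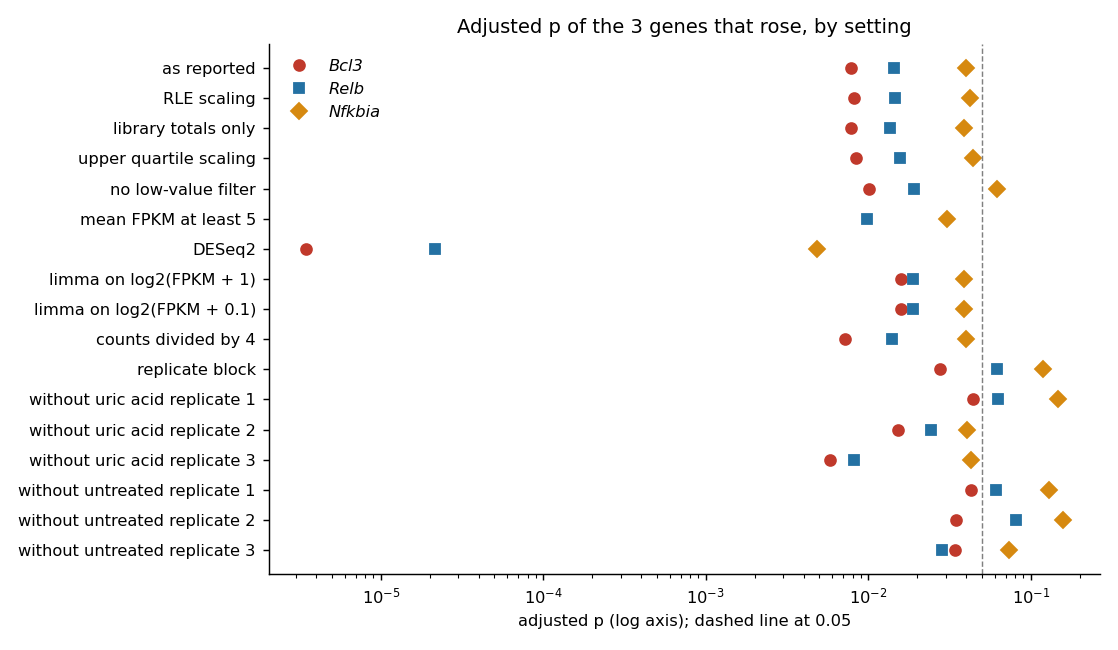
Adjusted p (log axis) of Bcl3, Relb and Nfkbia in the reported fit and under each alternative; the dashed line marks 0.05. Bcl3 lies left of the line in every setting that tested it (at most 0.044), Relb crosses it in 4 settings (at most 0.0813) and Nfkbia in 6 (at most 0.157).

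Rela was the most abundant of the 10 genes in both groups, at 37.1 ± 1.79 FPKM with uric acid and 38.7 ± 1.35 FPKM untreated, and stood apart from the next gene in each. With uric acid the order then ran Nfkbia, Nfkb2, Nfkbib, Nfkb1, Relb and Nfkbie, from 13.0 down to 7.21 FPKM, and each of these neighbours overlapped in the range of their libraries. Bcl3 (2.62 FPKM) and Tnfaip3 (2.13 FPKM) came next and overlapped, and Rel was last at 1.13 FPKM. In untreated cells Nfkb2, Nfkbia, Nfkbib and Nfkb1 lay between 10 and 8.79 FPKM with overlapping neighbours. Nfkbie (8.30 FPKM) and Relb (5.11 FPKM) followed without overlap, and Tnfaip3, Rel and Bcl3 formed the lowest group at 1.77, 1.56 and 1.08 FPKM, overlapping from each to the next. Bcl3 thus had rank 8 with uric acid and rank 10 in untreated cells. Within the uric acid group, library 2 was highest and library 3 lowest for Relb, Nfkb2, Nfkbib and Bcl3, while library 3 was highest and library 2 lowest for Rel, Nfkbie and Tnfaip3.

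Relb and Bcl3 are also neighbours in the genome, which was looked at after their values were seen. In the deposited coordinates, whose build is not named in the sources used here, Relb (ENSRNOG00000033235) lies on chromosome 1 from 80517411 to 80544825 and Bcl3 (ENSRNOG00000043416) from 80730499 to 80744831, both on the minus strand and 186 kb apart. In all, 6 of the 10 genes lie on chromosome 1. Nfkbia (ENSRNOG00000007390) lies on chromosome 6 from 76267228 to 76270457. The tested features between Relb and Bcl3 did not share a direction. Clptm1 had a log2 fold change of 0.01 (adjusted p = 0.964), Tomm40, a subunit of the mitochondrial import channel, -0.31 (0.0523) and the adhesion protein gene Nectin2 0.14 (0.248), all by edgeR. Bcam, which encodes a laminin-binding adhesion protein, was called higher, at 12.6 ± 1.61 FPKM with uric acid and 8.84 ± 0.664 FPKM untreated (0.51, adjusted p = 0.033); with 1 library left out that call held only without uric acid library 1 (0.0363), at 0.0518 to 0.152 in the other 5 fits. Apoe and Cblc, also between Relb and Bcl3, had means under 1 FPKM and were not tested. Of all tested features 4.99% were called higher. Over all tested features the groups were apart for 31.0%, and here they were apart for Tomm40 (lower with uric acid), Nectin2 and Bcam (both higher).

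**Figure D4:**
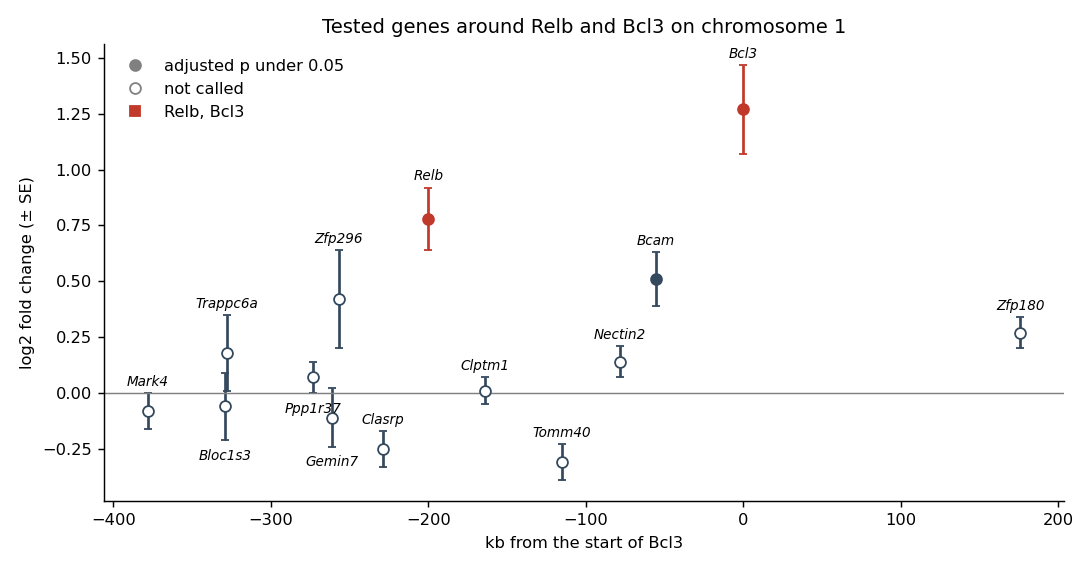
Log2 fold change (± SE) of tested genes from 200 kb before Relb to 200 kb after Bcl3, by distance of their start from that of Bcl3; filled points passed an adjusted p of 0.05. Relb (0.78), Bcam (0.51) and Bcl3 (1.27) are filled, and Clptm1, Tomm40 and Nectin2 between them are open.

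Other genes of the pathway were taken from 6 lists by role, of 148 genes without the 10, of which 128 were matched and 93 tested. Of these 93, 9 rose and 5 fell, or 15.1% against 7.98% of all tested features in either direction. Their median log2 fold change was -0.03 against 0.00 over all. The lists were chosen with earlier results of these data known. Among the 9, Irak3 and Il23a passed the filter on low values through the uric acid group alone. Which genes passed depended on single libraries: with 1 library left out between 2 and 14 were called, fewest without untreated library 2. The same table's own KEGG annotation of the NF-kB pathway, consulted afterwards, named 48 other tested features, of which 3 rose and 2 fell (10.4%). Those not on the lists were Blnk, a B-cell adaptor (log2 fold change 0.80, adjusted p = 0.0279), and Lyn, a SRC-family kinase (-0.42, 0.028). With 1 library left out Blnk held only without uric acid library 2 (0.0431, with 0.0553 to 0.103 in the others), and Lyn was lost without uric acid library 1 (0.0874) and untreated libraries 1 (0.0829) and 2 (0.101) and under limma on log2(FPKM + 1) (0.0506) and log2(FPKM + 0.1) (0.0512).

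Among receptors that feed the pathway, those that were tested fell or were not called. Of 18 matched receptor genes 12 had a mean under 1 FPKM and were not tested, all 6 matched Toll-like receptor genes among them. Of 6 tested none rose and 2 fell, or 33.3% against 7.98% of all tested features. Ngfr, the low-affinity neurotrophin receptor, stood at 5.30, 4.89 and 5.63 FPKM with uric acid and at 9.93, 9.17 and 11.9 FPKM untreated (-0.97 ± 0.12, adjusted p = 0.00235, edgeR), and passed with any 1 library left out. Tnfrsf12a, the receptor for TWEAK, a ligand that can engage the non-canonical route, stood at 19.8, 19.1 and 17.4 FPKM with uric acid and at 28.2, 28.2 and 27.1 FPKM untreated (-0.57 ± 0.09, 0.00769), and was lost without untreated library 2 (0.0546). For both the groups were apart. Il1r1, the receptor for interleukin-1, averaged 35.8 FPKM with uric acid and 37.8 FPKM untreated (-0.08, 0.73), and Tnfrsf1a, the main TNF receptor, had a log2 fold change of -0.15 (0.253). Ager (0.11, 0.831) and Il1rap, the partner of Il1r1 (-0.20, 0.474), were also not called.

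Among adaptors and ubiquitin ligases 3 of 24 tested genes rose and 2 fell, or 20.8% against 7.98% of all tested features. The median log2 fold change of the list was 0.07. Irak3, which encodes an inactive kinase that dampens Toll-like and interleukin-1 receptor signals, had 1.81, 2.84 and 1.80 FPKM with uric acid and 0.996, 0.941 and 0.992 FPKM untreated (1.13 ± 0.21, adjusted p = 0.015, edgeR), passing the filter on low values through the uric acid group alone. It was lost without untreated libraries 1 (0.0611) and 2 (0.0793). Peli2, a ligase acting on IRAK proteins, averaged 2.68 FPKM with uric acid and 1.43 FPKM untreated (0.91, 0.0252) and was lost without uric acid library 1 (0.0586) and untreated libraries 2 (0.115) and 3 (0.0789). Birc3, a ligase of TNF receptor complexes, averaged 1.78 FPKM with uric acid and 1.01 FPKM untreated (0.82, 0.0358) and stayed called only without uric acid library 3 (0.0445), with 0.0803 to 0.121 in the other 5 fits. Under limma Birc3 was not called either, on log2(FPKM + 1) (0.058) or log2(FPKM + 0.1) (0.0628). Ube2n, the enzyme that builds signalling ubiquitin chains, averaged 57.7 FPKM with uric acid and 72.9 FPKM untreated (-0.34, 0.0213) and was lost without uric acid library 1 (0.0874) and untreated libraries 2 (0.103) and 3 (0.0697). Card10, a scaffold protein, averaged 6.71 FPKM with uric acid and 9.26 FPKM untreated (-0.46, 0.0235) and was lost without uric acid library 1 (0.0538) and untreated libraries 1 (0.0615), 2 (0.102) and 3 (0.0773). Irak1, Rbck1, Sharpin and Traf2, the most abundant of those not called, had log2 fold changes of -0.05, 0.14, 0.14 and 0.30.

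Of 11 tested genes for kinases of the pathway and their regulatory or adaptor partners 1 rose and none fell, or 9.09% against 7.98% of all tested features. Ikbkb, the catalytic subunit that marks IkB-alpha in the classical route, had 11.5, 11.7 and 12.1 FPKM with uric acid and 9.32, 9.82 and 8.98 FPKM untreated (0.33 ± 0.07, adjusted p = 0.0298, edgeR). The groups were apart, and with 1 library left out the call held only without uric acid library 2 (0.0444), at 0.0512 to 0.104 in the other 5, and was also lost with no filter on low values (0.0514). Its partner Chuk had a log2 fold change of -0.03 (0.769), and Map3k14, the kinase of the non-canonical route, -0.02 (0.958), a value named after it was seen. Tbk1, Tab2 and Map3k7 stood at -0.08, 0.14 and 0.01. Of 9 tested genes that mark or degrade IkB proteins none was called, against 7.98% of all tested features. The most abundant of the 9, Skp1, Rbx1, Ube2d3 and Ube2m, had log2 fold changes from -0.16 to -0.07. Of 19 tested genes on the list of other brakes 1 rose and none fell, or 5.26% against 7.98% of all tested features. The gene that rose was Nfkbil1, named for its likeness to the IkB family. Nfkbil1 averaged 7.56 FPKM with uric acid and 5.08 FPKM untreated (0.57, 0.031). With 1 library left out it stayed called only without uric acid library 3 (0.0321), at 0.0601 to 0.0969 in the other 5. Tax1bp1, Tollip, Commd1 and Tnip1 were not called, at 0.07, 0.20, 0.04 and 0.08.

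Genes known as NF-kB targets gave a mixed picture. Of 45 matched, 17 had a mean under 1 FPKM, among them the chemokine genes Ccl2 and Cxcl1, the adhesion gene Icam1, Nos2 (inducible nitric oxide synthase), Tnf and Il6. Other chemokine genes, named after their values were seen, lay well above that level. Cxcl10 had 9.55, 6.44 and 6.57 FPKM with uric acid and 3.77, 5.31 and 5.82 FPKM untreated, with the groups apart. Cxcl11 averaged 10.7 FPKM with uric acid and 12.1 FPKM untreated. Neither was called by edgeR (log2 fold change 0.60, adjusted p = 0.122 for Cxcl10, and -0.19, 0.508 for Cxcl11). Of the 28 target genes tested, 5 rose and 1 fell, or 21.4% against 7.98% of all tested features. Their median log2 fold change was -0.02. Irf1, an interferon-related transcription factor, had 20.7, 19.5 and 21.3 FPKM with uric acid and 14.9, 15.0 and 15.0 FPKM untreated (0.45 ± 0.07, adjusted p = 0.00851, edgeR), a call that ended without uric acid library 1 (0.0501) or untreated library 2 (0.0621). Cd83, a surface protein of activated immune cells, had 9.66, 9.16 and 9.70 FPKM with uric acid and 4.65, 6.05 and 6.33 FPKM untreated (0.74 ± 0.13, 0.0134), and was lost without the same libraries (0.0624 and 0.0575). The groups were apart for both. The other rises were Birc3, given above, Myc and the cytokine subunit gene Il23a. Myc, a growth-promoting transcription factor, had 5.33, 9.77 and 3.73 FPKM with uric acid and 1.52, 1 and 1.29 FPKM untreated (2.29, 0.00537), and was called with any 1 library left out. Il23a had 2.44, 5.47 and 1.65 FPKM with uric acid and 0.788, 0.48 and 0.434 FPKM untreated (2.46, 0.0139), so that it passed the filter on low values through the uric acid group alone. The Il23a call ended when untreated library 2 (0.0779) or 3 (0.0552) was left out, and its log2 fold change was 1.82 once uric acid library 2, the highest, was dropped. On the log2(FPKM + 1) scale limma gave 1.6 for Myc and 1.32 for Il23a. Ier3, an early response gene, averaged 4.75 FPKM with uric acid and 7.47 FPKM untreated (-0.65, 0.0295) and was not called in any fit with 1 library left out (0.0522 to 0.139). B2m, Ninj1, Tapbp and Sod2, the most abundant of those not called, had log2 fold changes of 0.09, 0.14, -0.10 and -0.15.

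**Figure D5:**
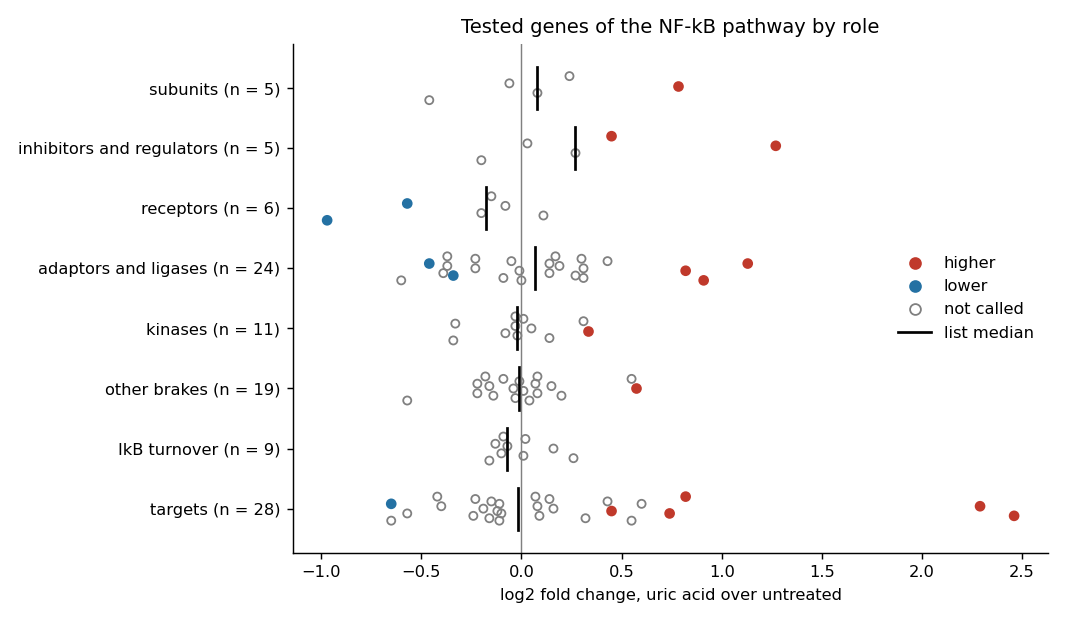
Log2 fold change of every tested gene by role, uric acid over untreated; filled points passed an adjusted p of 0.05 (red higher, blue lower), open ones did not, and the black bar is the list median. Medians lie between -0.18 (receptors) and 0.27 (inhibitors and regulators), and the largest values are those of Il23a (2.46) and Myc (2.29) among the targets.

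The features with a pattern most like the 3 genes that rose were found by the root mean square difference of log2(FPKM + 1) over the 6 libraries, each profile centred on its own untreated mean, among 8107 or 8108 tested features with a settled symbol and a mean of at least 5 FPKM. For Relb they were Dctd, a deoxycytidylate deaminase (0.0435), Shmt2, the mitochondrial serine hydroxymethyltransferase (0.0455), and Stx3, a syntaxin (0.0595). For Nfkbia they were Mrpl2, a mitochondrial ribosomal protein (0.0371), Pxk (0.0431) and Stk40 (0.0514). For Bcl3 they were Krcc1 (0.0372), Ctns, the lysosomal cystine exporter (0.0545), and Tsc22d3, also known as GILZ, a glucocorticoid-induced protein (0.0757). All 9 were called higher with uric acid, with log2 fold changes from 0.41 to 0.90, which a likeness to genes that rose brings with it. On this scale the low level of Bcl3 makes its change look smaller than its fold change.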

How the data were processed

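Polyadenylated RNA of 6 INS-1E libraries was sequenced as paired reads, and the second strand was marked with dUTP, per the labels' protocols. Tools named in the submitters' processing notes, without their roles, are StringTie 1.3.4d, HISAT2 2.0.4, cutadapt 1.9, edgeR and DESeq2. Neither the genome build nor the strand setting of the counting is named there. Per the file headers, the deposited table holds an FPKM value (scaled by the authors to length and library total) and a count for each library. The deposited counts were treated as estimated counts and rounded, since how many a read pair adds is not stated. All value columns were matched to a library by title, and no columns of 2 libraries were identical.

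Features with a mean of at least 1 FPKM (12460 of 19289) were fitted in edgeR 4.0.16 (R 4.3.3; TMM factors 0.992 to 1.01; quasi-likelihood F test; no covariate), with Benjamini-Hochberg adjustment over all of them. The standard error of a log2 fold change is its size divided by the root of F. The common biological coefficient of variation was 0.127, which with the number of libraries sets the precision (median standard error 0.113). Tested on simulated data (200 of 12460 features changed), the fit made 11 false calls and found 38.8% of log2 changes of size 0.5, 91.0% of size 1 and 98.5% of size 2. In the data 994 features were called, more than were changed in the simulation, so these shares need not carry over to the data. Alternatives were scaling, filters, DESeq2 1.42.0, limma 3.58.1 on log2(FPKM + 1) and log2(FPKM + 0.1), counts divided by 4, a replicate block and each library left out.

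The 10 genes and the lists were chosen with earlier results of these data known. From each of the 6 pathway lists every called gene and the 4 most abundant others were named; genes named from the marker lists were chosen after their values were seen. Of 148 pathway genes, 20 were not matched by symbol and are not analysed here. Promoter sequences are from RefSeq (GRCr8) and share no coordinates with the deposited table.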

Additional observations from a re-analysis of the deposited data

How the results depend on the processing

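No member called in the reported fit changed direction under any alternative that tested it, in fits that reuse the same libraries. Nfkbib, not called, changed sign without uric acid library 2 (log2 fold change -0.18) and without untreated library 1 (-0.07), within a range of -0.18 to 0.21 over the fits that left out 1 library. With 1 library left out, 1 to 3 members, 2 to 14 pathway genes and 231 to 1173 features were called, against 3, 14 and 994; such fits have fewer residual degrees of freedom. DESeq2 called 1753 features, the same 3 members and 20 pathway genes, and the cause of its higher count was not tested. Scaling left the 3 member calls in place and moved the share of higher calls among all calls between 57.6 and 63.7%, against 62.6%. Libraries with the same replicate number did not deviate together: the correlation of their deviations from the group means was 0.0684, -0.0492 and -0.19, and not every library correlated best with its own number. With the replicate number as a block 322 features, 6 pathway genes and 1 member, Bcl3 (adjusted p = 0.0276), were called, while Relb had 0.0618, Nfkbia 0.119, and the pathway genes lost (Birc3, Irak3, Peli2, Ube2n, Card10, Ikbkb, Nfkbil1 and Ier3) 0.0511 to 0.106. Without a filter on low values Nfkbia was lost, and a minimum of 5 FPKM left Bcl3, Rel and Tnfaip3 untested. Depth limits Bcl3, Rel and Tnfaip3 most, whose estimated counts were 83 to 356 per library.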
